A study of Mus musculus with 4 samples.

Results

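The genes described here are 9 interferon-response genes of the mouse, 5 that encode guanylate-binding proteins (Gbp2, Gbp3, Gbp5, Gbp6 and Gbp7) and 4 that encode interferon regulatory factors (Irf1, Irf2, Irf4 and Irf8). Their BCL6 peaks were all those whose nearest annotated promoter, as the authors' lists name it, belonged to one of the 9 genes, at any distance. The inguinal list of 1785 peaks held 3 of them and the perigonadal list of 3956 peaks another 3, at 4 genes: Gbp3, Gbp7, Irf1 and Irf4. No peak of either list was named for Gbp2, Gbp5, Gbp6, Irf2 or Irf8. The genes were chosen by family with their peaks in these lists already known, and the peaks were selected on the authors' nearest promoter, so their counts are descriptions and carry no test.

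The lists come from chromatin immunoprecipitation followed by sequencing, which recovers DNA bound by a protein. All samples were from C57BL/6 mice of genotype Adipoq-Cre;Sun1-sfGFP-myc, with no age, sex, treatment or number of animals given in the sources used here. Each of 2 depots, inguinal (subcutaneous) and perigonadal (visceral) fat, had 1 library made with a custom guinea pig antibody to mouse Bcl6 and 1 input library without antibody, which was not analysed here. Adipoq-Cre is active in adipocytes, and the Cre-dependent nuclear membrane tag let adipocyte nuclei be collected with beads against myc. With 1 BCL6 library a depot, no difference between depots can be set against variation between animals.

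BCL6 is a zinc finger repressor best known from germinal centre B cells. Its DNA sites resemble those of STAT proteins, which carry cytokine and interferon signals to the nucleus. Guanylate-binding proteins are large GTPases that interferon gamma induces strongly and that attack vacuoles of intracellular microbes. Their genes lie in clusters of related copies. Interferon regulatory factors bind interferon-stimulated response elements, repeats of the letters GAAA: IRF1 is mainly an activator, IRF2 can oppose it, and IRF4 and IRF8 are known from lymphoid and myeloid cells. IRF4 is also known in adipocytes for roles in lipolysis and thermogenesis.

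The tallest peaks of the group lay on the promoters of Gbp7 and Gbp3. The sequence under each is shown because the peak could be set against letters that BCL6, STAT and IRF proteins are known to recognise. Both are from RefSeq on GRCm38.p6, the assembly of mm10, on the plus strand, which is the strand of these genes. The Gbp7 stretch, chr3:142530095-142530312, spans the peaks of both depots and ends 24 bases before the annotated gene. The Gbp3 stretch, chr3:142559937-142560015, is the part of the inguinal peak before the annotated gene. Capitals mark matches to TTCNNNGAA, the STAT and BCL6 type, and to the response element type, which is GAAA and GAAA with 2 bases of any kind between them and reads on the opposite strand here.
Gbp7: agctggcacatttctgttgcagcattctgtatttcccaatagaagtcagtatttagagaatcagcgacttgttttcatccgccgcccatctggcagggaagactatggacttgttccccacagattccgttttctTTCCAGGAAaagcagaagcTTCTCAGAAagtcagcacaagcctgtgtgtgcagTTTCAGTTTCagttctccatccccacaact
Gbp3: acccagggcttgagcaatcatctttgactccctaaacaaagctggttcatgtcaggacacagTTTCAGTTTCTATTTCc

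Gbp7 was the gene of the group with a peak in both lists. In inguinal fat the peak lay at chr3:142530110-142530312, in the promoter region and intergenic between Gbp5 and Gbp7, with its centre 125 bases upstream of the start. Its score was 40.6. A score is the authors' peak height, scaled within the library, and here a whole multiple of 1 step. Read as 1 sequenced tag a step, this peak held 54 tags, and the exact Poisson 95% interval of its score was 30.5 to 53.0. It ranked 22 of 1785, and 98.7% of the list scored lower. In perigonadal fat the peak at chr3:142530095-142530279 had its centre 149 bases upstream and a score of 42.3, or 48 tags, with an interval of 31.2 to 56.1. It ranked 44 of 3956, and 98.8% of that list scored lower.

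The Gbp7 peaks of the 2 depots overlapped by 170 bases, with their centres 24 bases apart. A shared peak was one that overlapped a peak of the other list by at least 1 base, which held for 28.5% of inguinal and 12.8% of perigonadal peaks. Sharing went with height: all of the 24 inguinal peaks with at least as many tags as Gbp7 were shared (Wilson 95% interval 86.2 to 100%), and 45 of the 46 such perigonadal peaks. In inguinal fat 7.06% of peaks lay within 1 kb of a promoter, and 30.2% of these were shared. In perigonadal fat 6.22% did, of which 16.3% were shared. Among them Gbp7 ranked 6 of 126 in the inguinal and 10 of 246 in the perigonadal list. Scores are scaled within each library, so 40.6 and 42.3 give no direction between the depots.

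Gbp3, the next gene along chromosome 3, had an inguinal peak at chr3:142559937-142560139. Its centre lay 14 bases upstream of the start that the authors' list names, so the peak covers the start and the first bases of the gene. The score was 21.1, or 28 tags, with an interval of 14.0 to 30.4. It ranked 143 in the list and 20 of 126 among peaks within 1 kb of a promoter, and 91.6% of the list scored lower. The interval of Gbp3 ends just under that of Gbp7, whose score was the higher in inguinal fat.

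In perigonadal fat no peak was called at Gbp3, and the nearest one was that of Gbp7, with centres 29.9 kb apart. Of the 8 inguinal peaks with exactly 28 tags, Gbp3 among them, 5 were shared, 62.5% (30.6 to 86.3%). These are too few to say how usual a missing partner is at this height. Of the 150 with at least 28 tags, most of them taller than Gbp3, 136 were shared, 90.7% (84.9 to 94.4%). At promoters 18 of 20 peaks with at least 28 tags were shared, 90.0%. The other two were Gbp3, at rank 20 among promoter peaks, and Cmtm2a, a chemokine-like gene named after its values were seen, with a score of 21.8. The lists may have been called at different limits. The perigonadal list reached lower, to a score of 5.29, or 6 tags, and the inguinal list to 6.77, or 9 tags. Whether a limit left a perigonadal peak at Gbp3 uncalled was not tested. Library depth is unknown, so an uncalled perigonadal peak at Gbp3 does not show that BCL6 was absent there.

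**Figure D1:**
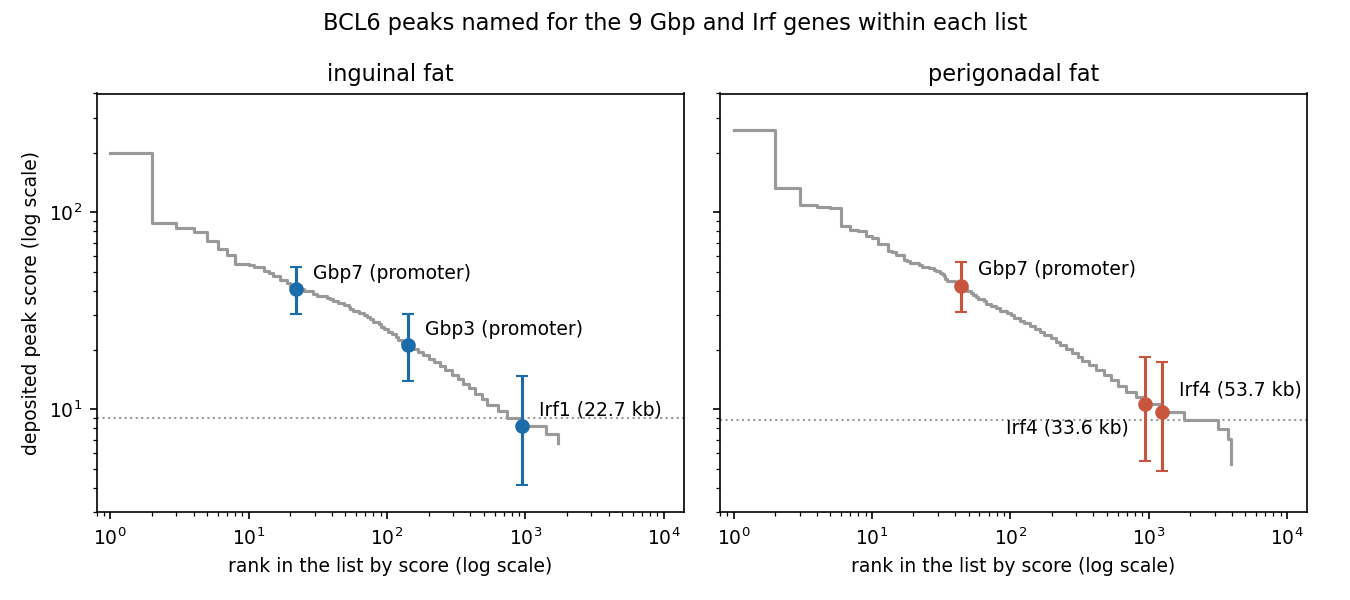
Deposited peak score against rank in its list, both on log axes, for inguinal (left) and perigonadal fat (right). The grey line is the whole list, the dotted line its median, and points are the peaks named for the 9 genes with exact Poisson 95% intervals of their tags; Gbp7 ranked 22 and 44, and the Irf1 and Irf4 peaks lay near the median.

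The peaks at Irf1 and Irf4 were low and far from the promoters. Irf1 had an inguinal peak at chr11:53793090-53793292, 22.7 kb downstream of its promoter and 14.7 kb past the end of the gene, in an annotated LTR repeat (RMER15). It scored 8.27, or 11 tags, with an interval of 4.13 to 14.8, under the list's median of 9.03. The lowest score in that list was 6.77, or 9 tags. Of the 475 inguinal peaks with 11 tags 5.47% were shared (3.76 to 7.90%), and the Irf1 peak was not.

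Irf4 had a pair of perigonadal peaks, 1 on each side of the gene. The upstream one, at chr13:30715566-30715750, lay 33.6 kb from the promoter in intergenic sequence, and its nearest gene by distance was Dusp22, a phosphatase gene whose nearer end was 4.33 kb away. It scored 10.6, or 12 tags, with an interval of 5.47 to 18.5. The other, at chr13:30802817-30803001, lay 53.7 kb downstream of the promoter, inside Exoc2, an exocyst subunit gene, in an annotated LINE repeat (L1MEb). It scored 9.70, or 11 tags, with an interval of 4.84 to 17.4. The list's median was 8.82. Neither peak had an inguinal partner, and the nearest inguinal peaks lay 303 and 390 kb away. Few peaks of this height had one: 8.39% of the 310 perigonadal peaks with 12 tags were shared (5.79 to 12%), and 4.21% of the 546 with 11 tags (2.82 to 6.24%).

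The deposited focus ratio, a fraction that describes how closely tags lie around the peak centre, was 0.935 for Gbp7 and 0.902 for Gbp3 in inguinal fat, where the list's quartiles were 0.750 and 0.867. It was 0.893 for Gbp7 in perigonadal fat, between that list's quartiles of 0.769 and 0.902. The Irf1 peak had 0.650, lower than all but 3.08% of its list. The Irf4 peaks had 0.812 and 0.684, and the lower belonged to the one in the LINE repeat. Annotated repeats held 21.1% of inguinal and 24.0% of perigonadal peaks.

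By count, 3 of the 9 genes had an inguinal peak, where 6.15% of 21887 protein-coding genes did at any distance. In perigonadal fat 2 of 9 had a peak, where 12.3% did. With peaks of more than 12 tags alone (41.3% of inguinal and 24.0% of perigonadal ones), 2 of 9 genes were left in inguinal fat (2.63% of all genes) and 1 of 9 in perigonadal fat (3.29%). Within 1 kb of the promoter the counts were again 2 of 9 and 1 of 9, beside 0.521% and 1.01% of all genes. Only Gbp7 had a peak in both lists. The median score of the 3 peaks was 21.1 in inguinal and 10.6 in perigonadal fat. Because the genes were picked with these peaks known, nothing is read from the counts standing above the background.

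The GBP genes sit in tandem clusters on chromosomes 3 and 5, and a peak is named only for the closest promoter. The chromosome 3 cluster holds Gbp5, Gbp7, Gbp3, Gbp2b and Gbp2 in 141 kb (chr3:142496934-142638008). It had the Gbp7 and Gbp3 peaks in inguinal and the Gbp7 peak in perigonadal fat, and no other peak within 100 kb of these genes. The next inguinal peaks lay 203 kb before and 244 kb after the cluster, and the next perigonadal ones 186 and 143 kb away. The Gbp7 peaks lay 7.77 and 7.75 kb past the end of Gbp5, which had no peak of its own. Gbp2 was 60.5 kb from the nearest inguinal peak, that of Gbp3, and 90.4 kb from the nearest perigonadal one, that of Gbp7.

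The chromosome 5 cluster holds Gbp6 with Gbp8, Gbp9, Gbp4, Gbp10 and Gbp11 in 334 kb (chr5:105012513-105346476). Gbp6 had no peak within 50 kb, and its nearest peak in either list was a tall one 58.3 kb away. That peak was intergenic and named for Gbp11, which RefSeq lists as a transcribed pseudogene. It lay 7.76 kb upstream of the Gbp11 promoter at chr5:105354135-105354337 in inguinal fat, with a score of 30.1 (21.5 to 41.0) and rank 68. In perigonadal fat it lay at chr5:105354160-105354344, with a score of 33.5 (23.7 to 46.0) and rank 73. The centres were 16 bases apart. Gbp8 had an inguinal peak 9.06 kb upstream with a score of 10.5 and no perigonadal one. On the far side of Gbp8 an inguinal peak named for Abcg3, a transporter gene, scored 11.3. Each cluster thus had 1 peak called in both depots, at the Gbp7 promoter and upstream of Gbp11.

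**Figure D2:**
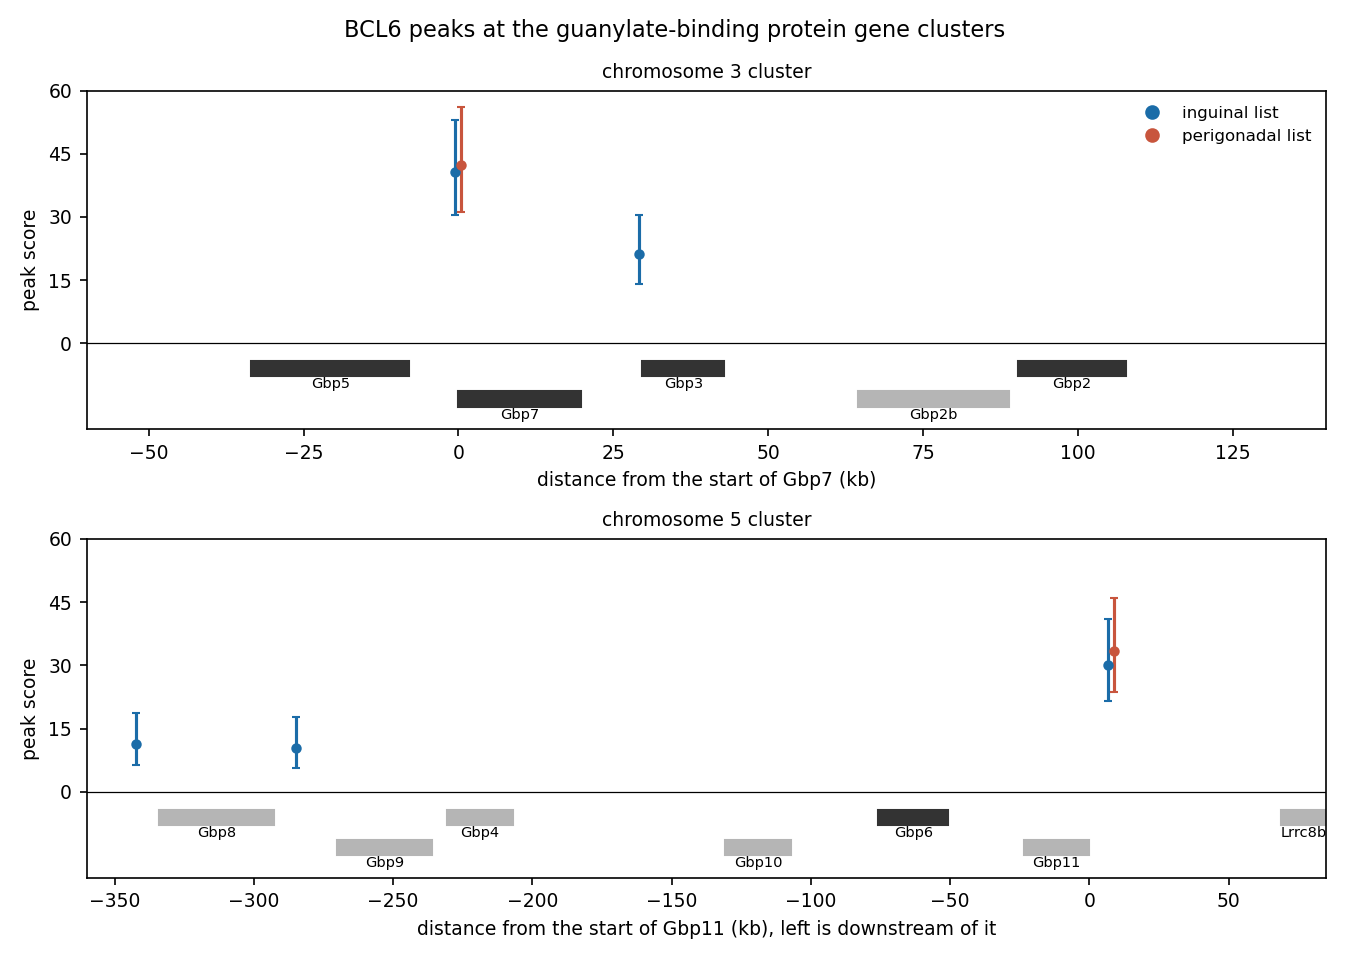
Peak score (vertical axis) against distance in kb from the start of Gbp7 (top, chromosome 3) or of Gbp11 (bottom, chromosome 5), with exact Poisson 95% intervals. Points are called peaks of the inguinal and perigonadal lists, set slightly apart where they coincide. Boxes are genes, dark for those among the 9; both lists have a peak at the start of Gbp7 and near Gbp11, and only the inguinal list has one at Gbp3.

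GBP genes are related copies, so reads can be hard to place among them, and the sources used here do not say how the authors treated reads with several matches. The printed Gbp7 and Gbp3 stretches were compared with the 300-base promoter windows of all other genes in RefSeq's promoter table. The longest run of letters either shared with another gene's window was 16 bases. That comparison covers promoters only, and those of Gbp4, Gbp6, Gbp8, Gbp9, Gbp10 and Gbp11 were not analysed here. The Gbp3 stretch is 79 bases long and stops before the gene, so the rest of that peak, its centre included, was not compared.

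Peaks near Irf1 and Irf2 were named for non-coding genes. A peak called in both depots lay 6.91 kb upstream of Irf1 in inguinal (chr11:53762900-53763102) and 6.99 kb upstream in perigonadal fat (chr11:53762845-53763029). It was named for Mir7671, a microRNA gene, and scored 12 (6.88 to 19.5) and 9.70 (4.84 to 17.4). Irf1 is the nearest protein-coding gene to it. Counted by distance to the gene, Irf1 therefore had a peak in each depot, and the shared one was closer than the inguinal peak that carries its name.

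Upstream of Irf2 the depots had separate peaks, both named for the non-coding gene Gm16675. The inguinal one lay 1.61 kb from the start of Irf2, in a SINE repeat, and scored 10.5 (5.76 to 17.7). The perigonadal one lay 19.7 kb away in intergenic sequence and scored 12.3 (6.75 to 20.7). Their centres were 18.0 kb apart. Irf8 had no peak of any name within 100 kb: the nearest lay 483 kb away in inguinal and 247 kb away in perigonadal fat, the second at Gse1.

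With every peak in a gene or within 50 kb of either end counted, 5 of the 9 genes had an inguinal peak (Gbp3, Gbp5, Gbp7, Irf1 and Irf2), beside 12.1% of protein-coding genes. In perigonadal fat 6 of 9 did (those 5 and Irf4), beside 24.9%. Under this count the peaks of Gbp7 serve Gbp5 and Gbp3 as well, so neighbours are not separate observations. Gbp2, Gbp6 and Irf8 had none in either depot.

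**Figure D3:**
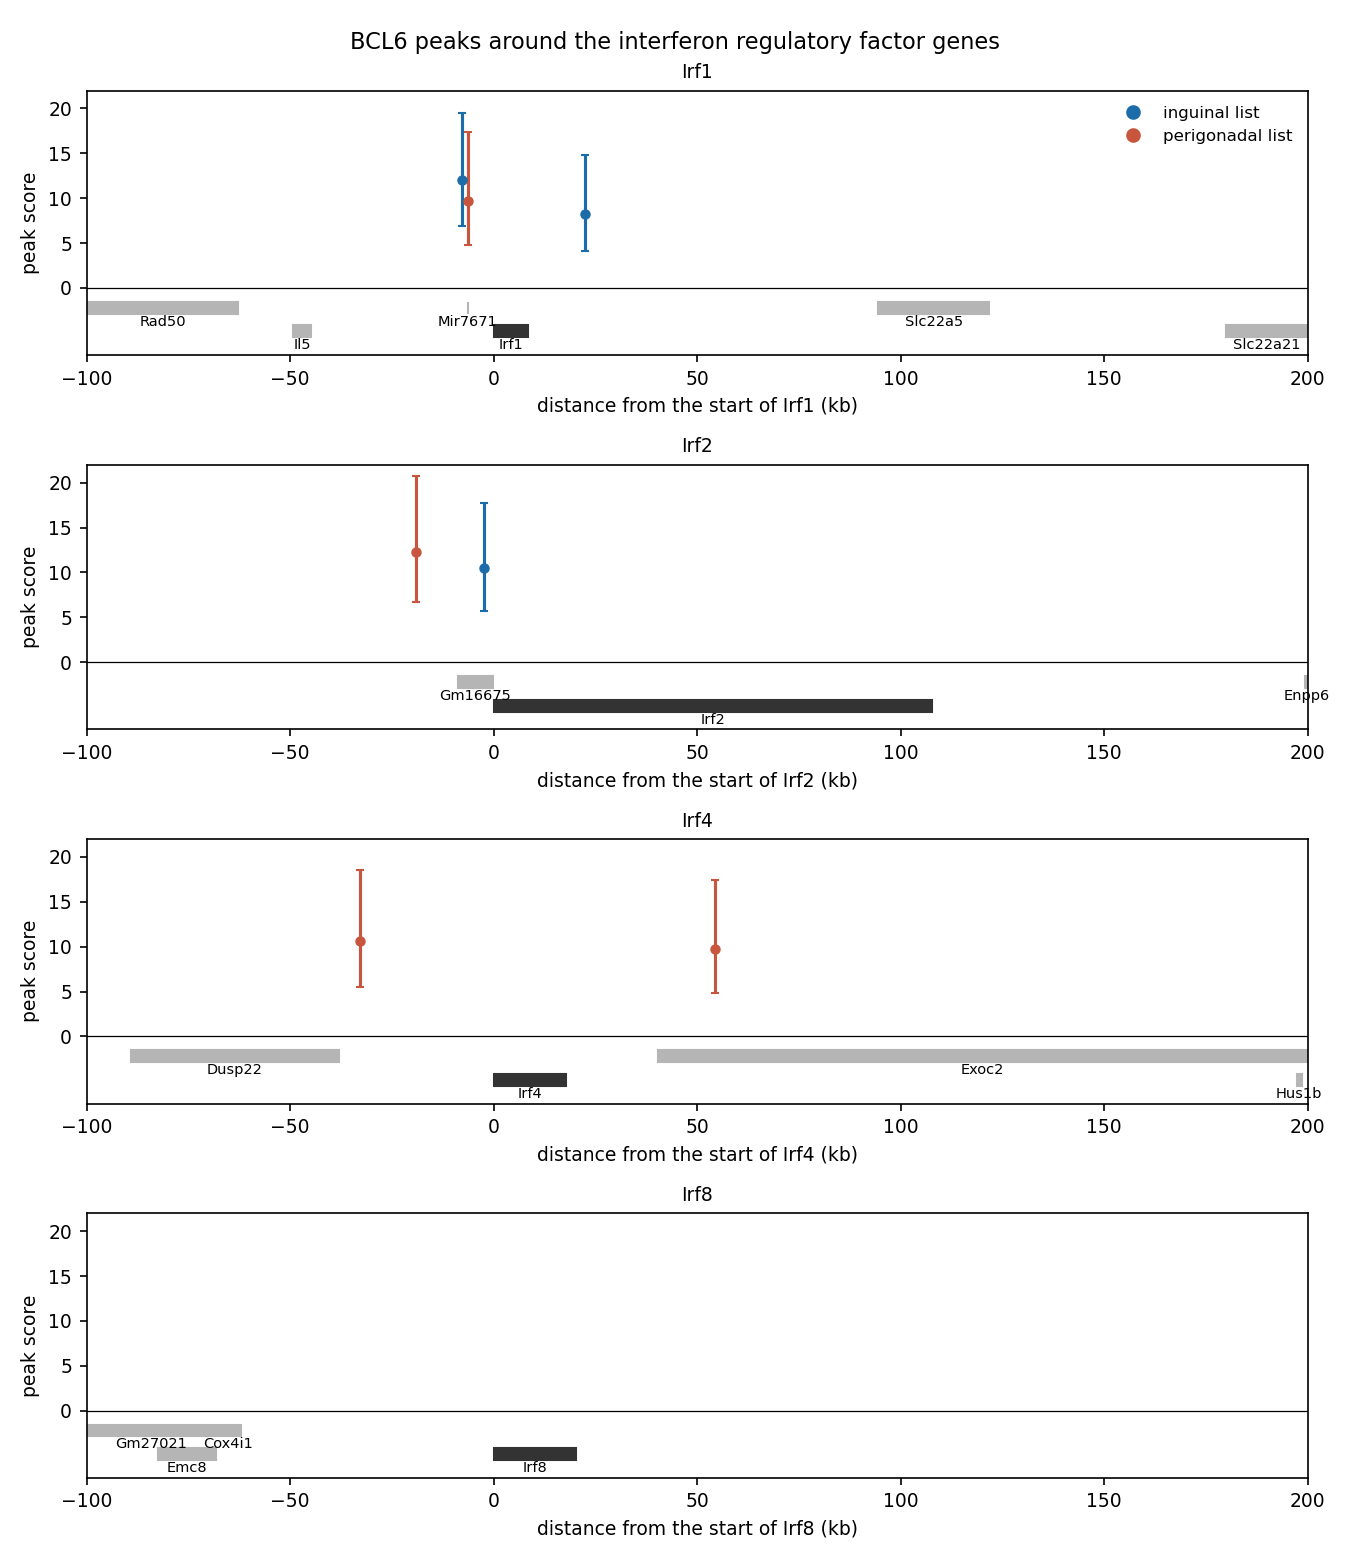
Peak score (vertical axis) against distance in kb from the start of Irf1, Irf2, Irf4 and Irf8, with exact Poisson 95% intervals. Points are called peaks of the inguinal and perigonadal lists and boxes are genes; both lists have a peak just upstream of Irf1, the Irf2 peaks differ in place, the Irf4 peaks are perigonadal, and the Irf8 panel is empty.

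RefSeq's table held 11 promoter windows for 8 of the 9 genes, from 250 bases before to 50 after an annotated start. All were searched on both strands for 5 motifs. TTCNNNGAA, which reads the same on both strands, occurred in 5 of the 11 windows (Gbp5, Gbp7, Irf1, Irf2 and Irf8) and in 8.30% of all 32851 windows. TTCCTAGAA, a special case of it, occurred in none of the 11 and in 0.411% of all. The response element type occurred in 5 of the 11 (Gbp2, Gbp3, Gbp5, Gbp7 and Irf2) and in 3.44% of all. Gbp2, Gbp3, Gbp5 and Gbp7 are related neighbours on chromosome 3, so their windows are not separate observations. GGAA and GAAA with 2 bases between them, the letters of an ETS and IRF composite, occurred at Gbp5 and Irf2 (2.72% of all). At Irf2 it overlapped the response element match. TGANTCA, the AP-1 type, occurred at Gbp2 (7.81% of all). Such matches are letters in a window and show no binding.

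Gbp7, Gbp5 and Irf2 held both TTCNNNGAA and the response element type, a combination found in 0.454% of all windows. Only at Gbp7 did a called peak cover them. Its TTCNNNGAA matches began 106 and 87 bases before the start, and lay inside the peaks of both depots. The first, TTCCAGGAA, was 23 bases from the centre of the inguinal and 47 bases from that of the perigonadal peak. The second, TTCTCAGAA, was 42 and 66 bases away. The response element match began 53 bases before the start, inside the inguinal peak at 76 bases from its centre and outside the perigonadal peak. The TTCNNNGAA matches are set side by side here, since they share the motif and only those of Gbp7 lay under a peak. Capitals mark the match, on the strand of the gene.
Gbp7 at 106: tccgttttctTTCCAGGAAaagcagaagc
Gbp7 at 87: aagcagaagcTTCTCAGAAagtcagcaca
Gbp5 at 245: gcaacTTCTGGGAAattagttcag
Gbp5 at 52: tggccgttatTTCTCAGAAccaagcacag
Irf1 at 90: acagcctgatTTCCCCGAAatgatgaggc
Irf2 at 224: aaattgacttTTCCGAGAAatgatgaaag
Irf8 at 171: caaaagtgatTTCTCGGAAagagagcgct
Irf8 at 153: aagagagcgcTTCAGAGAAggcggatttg
The number after each name is how many bases before the annotated start the match begins. The Gbp5 match at 52 and the Gbp7 match at 87 have the same letters, TTCTCAGAA, and a peak was called at Gbp7 alone.

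Among the 5 GBP genes of chromosome 3 each had a response element match, and peaks lay on 2 of them. At Gbp3, overlapping matches began 45 and 39 bases before the start used by its promoter window and lay 34 and 28 bases from the centre of the inguinal peak. That start lies inside the gene as annotated, which begins at chr3:142560016, so the matches are closer to the gene's first base. No TTCNNNGAA match occurred in the windows of Gbp3, which leave out 12 bases of its peak. The elements are shown on the strand on which the GAAA repeat reads, with matches in capitals.
Gbp7 at 53: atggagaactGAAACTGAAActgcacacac
Gbp3 at 45: gatctggGAAATAGAAACTGAAActgtgtc
Gbp5 at 165: tctctaaactGAAATTGAAActacacaagt
Gbp2 at 59: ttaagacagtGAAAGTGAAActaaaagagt
Gbp2b at 137: tgataaagaaGAAAGTGAAAttagaagtac
Gbp7 and Gbp3, the genes with a promoter peak, both held GAAACTGAAA. Gbp2 and Gbp2b held GAAAGTGAAA, and Gbp5 held GAAATTGAAA, all without a peak. These are 5 sequences from related genes, and nothing is read from the difference.

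Across the promoter windows that a peak overlapped, TTCNNNGAA was found in 18 of 66 in inguinal fat, 27.3% (18.0 to 39.0%), and in 27 of 118 in perigonadal fat, 22.9% (16.2 to 31.2%). It was found in 10 of the 23 windows overlapped in both, 43.5% (25.6 to 63.2%), Gbp7 among them. Its special case TTCCTAGAA was found in 6 of 66, 9.09% (4.23 to 18.4%), and in 7 of 118, 5.93% (2.90 to 11.7%). In the windows overlapped in both it was found in 4 of 23, 17.4% (6.98 to 37.1%), beside 0.411% of all windows. The Gbp7 window did not hold it. The response element type was found in 3 of 66, 4 of 118 and 1 of 23, the last being Gbp7. These shares, 4.55%, 3.39% and 4.35%, have intervals that hold the 3.44% of all windows. Windows of 1 gene can overlap each other, so these are not independent sites. By base composition the GBP windows had 42.3 to 48.3% G and C, and the IRF windows 54.7 to 75.0%.

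**Figure D4:**
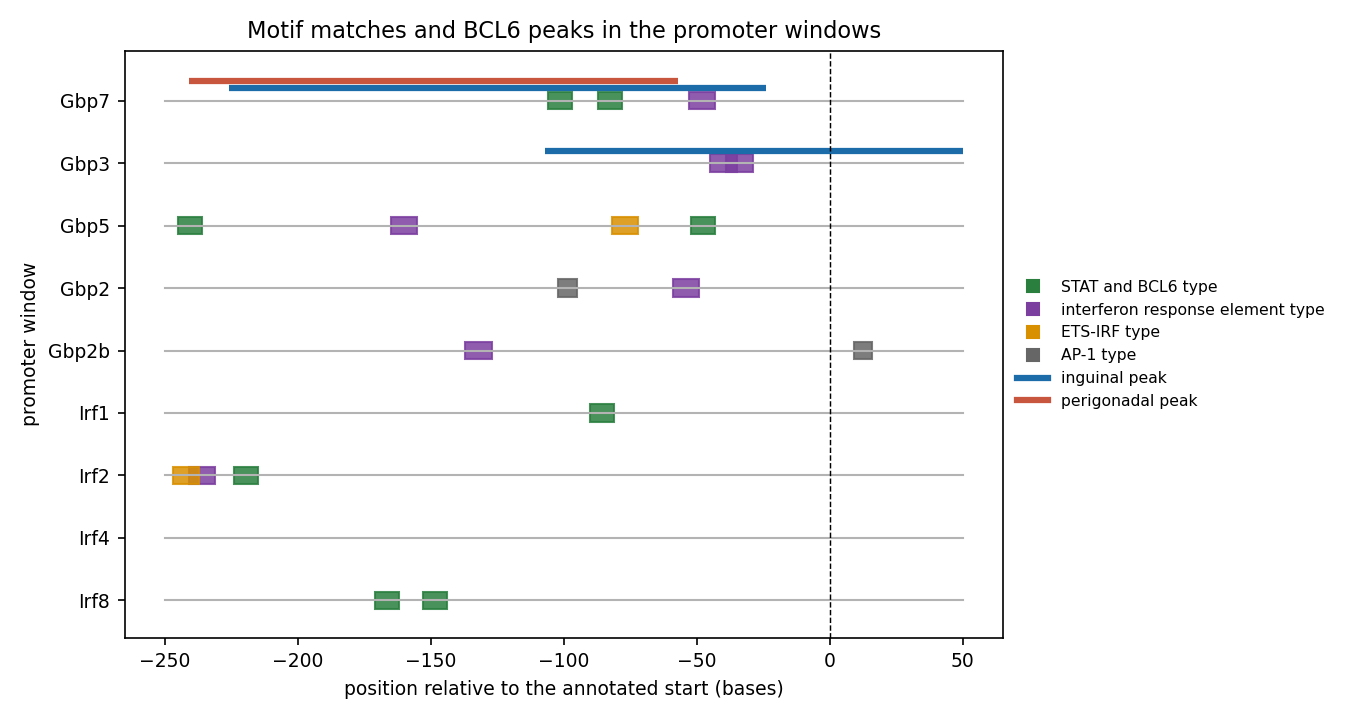
Motif matches (boxes) in the first promoter window of each gene, by position in bases relative to the annotated start (dashed line), with called BCL6 peaks drawn as bars above. The peaks of both lists cover the pair of STAT and BCL6 type matches of Gbp7, the inguinal peak at Gbp3 covers its response element matches, and no other window has a peak.

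Other interferon genes were taken from 5 lists with 63 genes. A gene counted if a peak named for it lay within 50 kb, which held for 4.25% of protein-coding genes in inguinal and 8.89% in perigonadal fat. In inguinal fat 8 of 63 had a peak, with a median score of 11.2, and in perigonadal fat 6 of 63, with a median of 8.82, equal to that of the list. In peaks of more than 12 tags within 50 kb the counts were 6 of 63 and 1 of 63, beside 1.88% and 2.42% of protein-coding genes. Gbp11, the only one left in perigonadal fat, is counted in both depots. As a pseudogene it is not among the protein-coding genes of these shares. A shared peak was found at 3 genes: Gbp11, Cxcl9 and Cxcl10.

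Among other GBP genes, Gbp11 and Gbp8 made 2 of 6 in inguinal fat, and Gbp11 made 1 of 6 in perigonadal fat. Among other IRF and IRF2-binding protein genes Irf2bp2, which encodes a corepressor that binds IRF2, was 1 of 8 in both. Its inguinal peak was centred 512 bases upstream of the start that the authors' list names, with a score of 18.8 (12.2 to 27.8). Its perigonadal peak was centred 1.23 kb upstream of that start, with 9.70 (4.84 to 17.4). By the RefSeq annotation the inguinal peak overlapped the gene and the perigonadal one lay 0.592 kb from it. Their centres were 0.722 kb apart, so the peaks did not overlap.

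Genes of interferon receptors and JAK-STAT signalling had 1 inguinal and 0 perigonadal peaks among 11: the one at Jak1, a kinase of the interferon receptors, lay 26.8 kb upstream and scored 7.52. Of 9 other interferon-induced GTPase genes 0 had an inguinal peak and 2 a perigonadal one, both at 8.82: in Irgm2, in a SINE repeat, and in intron 1 of Ifi47.

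Of 29 other interferon-stimulated genes, peaks were named for 4 in inguinal and for 2 in perigonadal fat. The tallest was inguinal and lay 19.9 kb from the promoter of Rsad2, the gene of the antiviral enzyme viperin, with a score of 19.6 (12.8 to 28.7). The inguinal peak of Bst2, which encodes tetherin, was centred 14 bases upstream of the start and scored 10.5. Cxcl9, a chemokine gene, had a shared peak in its last exon with 12 and 7.05, and that of Cxcl10 scored 8.27 and 8.82. The tallest peak of the 63 genes within 1 kb of a promoter was the inguinal one of Irf2bp2, at 18.8 (12.2 to 27.8). Its interval overlapped that of Gbp3 (14.0 to 30.4). The Gbp11 peaks, farther from their promoter, scored 30.1 and 33.5. The 9 genes were chosen with their peaks known, so nothing is read from setting their heights beside these.

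Peaks do not measure expression, and the lists cannot show whether any of these genes was active. Of 10 adipocyte marker genes 3 had an inguinal peak within 50 kb (Cidec, Lep and Klf15) and 4 a perigonadal one (Lpl, Lep, Slc2a4 and Klf15). Of 8 macrophage and 8 lymphocyte marker genes 0 had one in either depot. Over all protein-coding genes the shares were 4.25% and 8.89%, so a count of 0 in lists this short lies near the background, and nothing is read from it. The share of nuclei from other cells in the libraries was not tested.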

How the data were processed

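BCL6 binding was measured in adipocyte nuclei of 2 fat depots, fixed with disuccinimidyl glutarate for 30 minutes and 1% formaldehyde for 10 minutes, per the labels' protocols. Bowtie 1.2 and HOMER on mm10 are named per the submitters' processing notes. The inguinal header names a false discovery rate of 0.001 and the perigonadal header no threshold, per the file headers. Pooling is not stated in the sources used here. Each deposited score, focus ratio (a fraction) and distance to the nearest promoter (in bases) is the authors' value. Scores were whole multiples of 0.752 (inguinal) and 0.882 (perigonadal) within rounding for 100% of peaks, and 1 step was read as 1 tag. Library depth is unknown.

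Peaks were matched to RefSeq genes of GRCm38.p6 by Entrez number (1589 of 1593 and 3178 of 3180 nearest genes; all 9 members). Tied ranks take the best place. Poisson (exact) and Wilson 95% intervals cover counting error only and leave out variation between animals and libraries. Reads that carry no molecular identifier can be copies of 1 molecule, so the Poisson intervals may be too narrow. No genome was used here, so motifs were searched in promoter windows alone. Overlap, motif search and the score step were tested on simulated data. The members, gene lists and motifs were chosen with earlier results of these data known. All members, every peak of theirs, the genes beside those peaks and every listed interferon gene with a peak within 50 kb are named. Most other listed genes are counted and not reported here by name. Alternatives covered distance, height, assignment, list length and overlap. Work was done in Python 3.11.15 with pandas 2.3.3 and scipy 1.17.1.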

Additional observations from a re-analysis of the deposited data

How the results depend on the processing

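Of 23 alternatives run, 17 left their count within 1.5 times. The inguinal count of 3 genes became 5 with any peak in the gene or within 50 kb of either end. The perigonadal count of 2 became 6 under that assignment, and 1 within 10 kb of the promoter or with more than 12 tags. The 6 other interferon genes with a perigonadal peak became 1 with more than 12 tags and 2 with the list held to the 1785 tallest peaks, ties being broken by position. The Gbp7 peak was the 1 shared peak under every overlap rule and limit run. The wider motif window was not run, since no genome was used. No paired analysis was possible because each depot had 1 BCL6 library and no test was made. Unknown depth limits what an uncalled peak shows.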
